A study of Arabidopsis thaliana with 6 samples.

Results

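Expansins are described here through 14 genes, each with 1 probe set, out of 13350 genes with a probe set of their own and 22746 probe sets in all after controls were left out. The members are all probe sets annotated with a single gene whose symbol is EXPA or EXPB followed by a number, 10 of them EXPA and 4 EXPB. RefSeq's gene table lists 30 Arabidopsis genes under such symbols, and the others, among them EXPA1 and EXPA5, are not analysed here. A further 2 probe sets each carry a pair of expansin genes (EXP26 with EXPA22, and EXPA25 with EXPA23), were not counted as members and gave signals of at most 11 on any array.

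The study compared seedlings of Arabidopsis thaliana, ecotype Columbia glabra, raised for 4 days in darkness at 23 °C in medium without added sucrose. They then spent 6 h in air, under anoxia, or under anoxia with 90 mM sucrose. Each of the 3 groups had 2 Affymetrix arrays, 1 from experiment 1 and 1 from experiment 2, and every array carried RNA pooled after extraction from 4 seedling cultures. Beyond the name Columbia glabra, the labels give no genotype, and they name no transgene. RNA came from whole seedlings, so hypocotyl, root and cotyledon were not separated.

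Expansins are small secreted proteins that loosen plant cell walls without cutting their polymers, most strongly at acid pH, and so let turgor stretch the wall. The alpha family is named EXPA and the beta family EXPB in Arabidopsis, and their genes differ in where they are used. In darkness the seedling lengthens its hypocotyl by cell expansion alone, and root hairs grow out from single epidermal cells with expansins of their own, EXPA7 and EXPA18. In deepwater rice, submergence raises expansin genes in the growing internode, whereas Arabidopsis seedlings stop growing without oxygen. Members were therefore grouped by role, as genes of the growing hypocotyl and shoot, of root hairs, or with no assigned role, from general knowledge of these genes. Genes listed for other root tissue and for seed germination (EXPA12, EXPA14, EXPA17 and EXPA2) are not analysed here.

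Signal is the deposited brightness of a probe set on a linear scale. Level is log2(signal + 16) minus the same array's median over all probe sets, so that 0 is the median probe set, and a change is a difference between levels. Levels of different probe sets are not compared, since brightness depends on the probes as well as on the transcript. The 16 added to each signal understates changes of dim genes. A probe set was tested if its mean level over the 6 arrays reached the 30th percentile, a limit of -0.84. Of the 14 expansins 10 passed, and EXPA7, EXPA21, EXPA24 and EXPB5 did not.

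The arrays differ in quality and brightness. Median signal lay between 21.2 and 50.6, and 26.1% to 43.6% of the probe sets of an array read below 16. The dimmest array, anoxia with sucrose in experiment 1, had a 3'/5' signal ratio of 7.61 for the GAPDH controls against 1.38 to 2.42 on the other 5 arrays. For the second pair of actin controls the ratio was 21.6 against 1.70 to 4.24, and for the first pair 20.3 against 8.36 to 18.5. On each of these ratios the highest of the other 5 arrays was air in experiment 1. Markers of etiolated and green plastids, PORB and LHCB4.1, were both bright on every array, at 24.6 to 82.6 and 62.6 to 111 times the array median. Each was the 1 gene matched, of 2 listed for etiolated and 4 for green plastids. Of 31 root hair markers only EXPA7 and EXPA18 had a probe set with a single matched gene, so root hair content could not be followed apart from the expansins themselves.

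**Figure D1:**
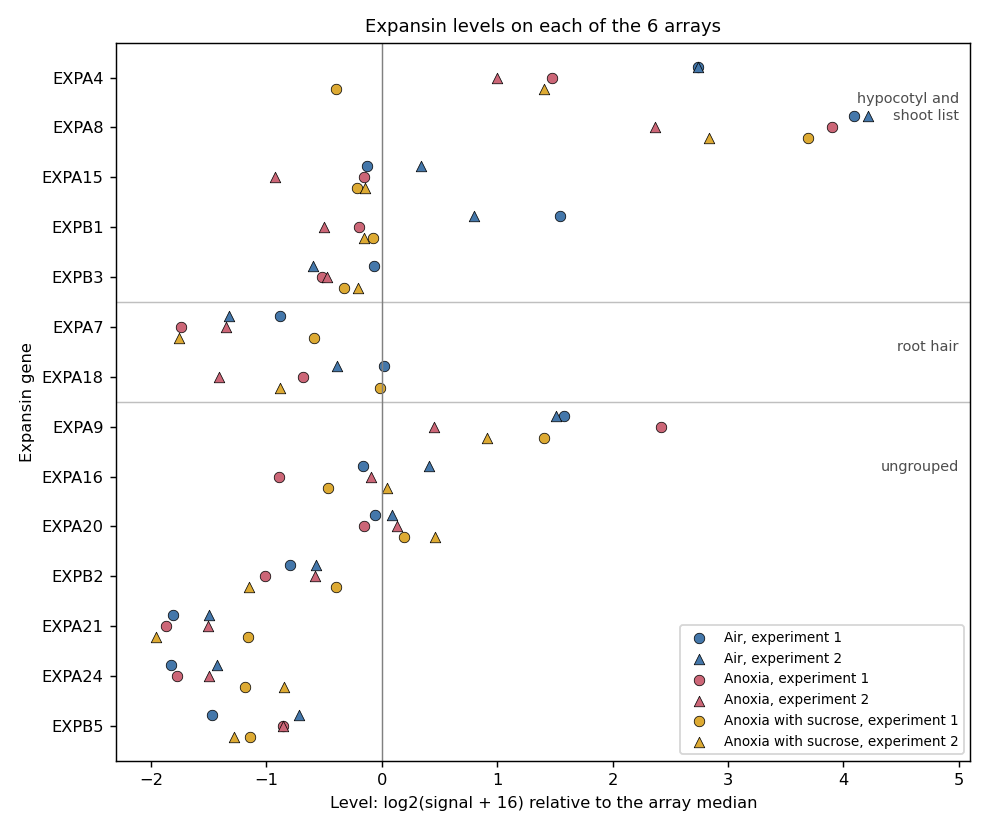
Levels of the 14 expansins on the 6 arrays, as log2(signal + 16) relative to the array median, with 1 row per gene, colours for the 3 groups and circles and triangles for experiments 1 and 2. Both air arrays of EXPA4 and EXPB1 lie to the right of all 4 anoxic arrays, while EXPA21 and EXPA24 stay near the left edge.

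Among the genes listed for growing hypocotyls and shoots, 5 of 10 were matched to a probe set: EXPA4, EXPA8, EXPA15, EXPB1 and EXPB3. The annotation used gives no gene for 8730 probe sets, so a gene without a match may still be on the array. EXPB1, a beta-expansin, gave signals of 165 (experiment 1) and 65.3 (experiment 2) on the air arrays, 37.5 and 18 on the anoxia arrays, and 19.2 and 43.9 on the sucrose arrays, in that order of experiments as for all genes below. Both air arrays stood above all 4 arrays without oxygen, and the 2 anoxic groups overlapped in signal but not in level. Its level was 1.17 ± 0.53 in air, -0.35 ± 0.21 under anoxia and -0.12 ± 0.052 with sucrose (SD, n = 2).

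EXPA4, an alpha-expansin, read 399.6 and 297 on the air arrays, 154 and 79.7 on the anoxia arrays, 12.3 and 160 on the sucrose arrays. The air arrays were alike, both at a level of 2.74, and none of the other 4 arrays came near them. The lowest value, 12.3 or a level of -0.39, belongs to the sucrose array of experiment 1, whose 3'/5' ratios were high. The other sucrose array, at 1.40, lay between the anoxia arrays, at 1.47 and 0.995. In rank, EXPA4 moved from the 89.5th and 91.3rd percentile of all probe sets in air to the 74th and 69.8th under anoxia, and to the 37.4th and 74.7th with sucrose.

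EXPA8, another alpha-expansin, read 1042 and 851 with air, 900.3 and 232 with anoxia alone, 465 and 459 with added sucrose. It was at or above the 88.5th percentile on every array. In level the air group (4.09 and 4.21) lay above all others, but the anoxia array of experiment 1, at 3.90, was close to air and that of experiment 2, at 2.37, was not. EXPA15 showed the same split by experiment, with 40.8 and 43.3 for air, 39.2 and 9.2 for anoxia, and 16 and 44.1 for anoxia with sucrose. EXPB3 read 43.4 and 14.9 (air), 26.8 and 18.5 (anoxia), and 13.7 and 41.7 (sucrose), with levels between -0.60 and -0.066 on all 6 arrays. In level both sucrose arrays lay above both anoxia arrays, and the air arrays lay on either side of all 4.

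Of the root hair expansins, EXPA18 read 47 and 19.7 on the air arrays, 22.1 and 2.1 on the anoxia arrays, 20.8 and 20.1 on the sucrose arrays. Its level was -0.19 ± 0.29 in air, -1.05 ± 0.51 under anoxia and -0.45 ± 0.61 with sucrose (SD, n = 2). In level the air and anoxia arrays did not overlap, and the sucrose arrays overlapped with both. EXPA7, which root hairs need for normal elongation, read 17.8 and 2.7 with air, 2.4 and 2.8 with anoxia alone, 8.8 and 3.7 with added sucrose. Its signal exceeded 16 on 1 array, air in experiment 1, which also gave the highest signal of EXPA18.

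No role was assigned to EXPA9, EXPA16, EXPA20, EXPA21, EXPA24, EXPB2 and EXPB5. EXPA9 read 169.5 and 118 (air), 312 and 49.8 (anoxia), and 82.8 and 109 (sucrose), so its highest and lowest readings were both under anoxia. For EXPA16 the air arrays read 39.5 and 46.2, the anoxia arrays 17.1 and 29, and the sucrose arrays 10.9 and 52.7. In level its 3 groups overlapped. EXPA20 ranged from 26.6 to 75.4 and EXPB2 from 12.2 to 19.9, with levels of EXPA20 between -0.15 and 0.46 and of EXPB2 between -1.15 and -0.40.

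The remaining expansins were at the bottom of the scale. EXPA21 read 0.6 to 1.7 on all 6 arrays, and EXPA24 0.4 to 1.9 on 5 arrays and 20.9 on the sucrose array of experiment 2. In RefSeq's gene order EXPA21 lies next to EXPA22 and EXPA24 next to EXPA25, in the same run of expansin genes that the 2 shared probe sets cover. EXPB5 read 0.9 to 17.8. A signal of 0 corresponds to a level between -2.06 and -1.22 depending on the array, so levels and changes of these genes and of EXPA7 largely follow the arrays' medians. They enter the counts over all 14 members below, where this limit holds for each of them.

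The first comparison, anoxia against air, asked how 6 h without oxygen altered these genes when no sugar was given. All 10 tested expansins lay below 0, as did 42.5% of all tested probe sets, with EXPB1 and EXPA4 lowest. By limma, with Benjamini-Hochberg adjustment over 15922 probe sets, 0 of the 10 passed, where 0.126% of all tested probe sets were called lower and 0.107% higher. The unadjusted p was under 0.05 for 3 of them, EXPB1, EXPA4 and EXPA18, against 6% of all tested probe sets. Less RNA per cell and fewer cells of a type cannot be told apart in whole seedlings.

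EXPB1 was at a log2 change of -1.52 ± 0.35 (SE, adjusted p = 0.2 by limma), a level 2.86-fold lower, with -1.74 in experiment 1 and -1.29 in experiment 2. With the experiment number as a block it fell (adjusted p = 0.0056), and it was the 1 expansin called that way, where 1.58% of all tested probe sets were called lower and 0.961% higher. With the block and each of the 6 arrays left out in turn, EXPB1 passed in 4 fits, and missed the threshold without the air array of experiment 1 (adjusted p = 0.06 by limma) and without the anoxia array of experiment 1 (adjusted p = 0.0706). EXPA4 passed in 2 of these fits. EXPA4 was at -1.51 ± 0.58 (adjusted p = 0.692 by limma), with -1.27 and -1.74 by experiment. Its 95% interval ran from -2.79 to -0.22. In each experiment both genes lay at -1.27 or lower.

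EXPA8 and EXPA15 differed between the experiments. EXPA8 was at -1.01 ± 0.62, made up of -0.19 in experiment 1 and -1.84 in experiment 2, and EXPA15 at -0.65 ± 0.35, made up of -0.020 and -1.27. EXPA9 lay on both sides of 0, at 0.85 in experiment 1 and -1.06 in experiment 2. EXPA16, at -0.61 ± 0.38, was below 0 in both (-0.72 and -0.50). Whether the changes of these genes differ between experiments was not tested, since each experiment has 1 array per group.

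EXPA18, the tested root hair gene, was at -0.86 ± 0.38 (adjusted p = 0.828 by limma), with -0.70 and -1.02 by experiment. Its change lies inside the range of the 5 hypocotyl and shoot genes, -1.52 to -0.16, whose median was -1.01 (-0.45 in experiment 1 and -1.29 in experiment 2). The 4 tested genes without a role had a median of -0.11, and EXPA20, EXPB2 and EXPB3 lay between -0.16 and -0.027 with 95% intervals that go no lower than -0.86. With 1 tested root hair gene, no test of the difference between root hair and hypocotyl genes was made.

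The median change of the 10 tested expansins was -0.63 (-0.34 in experiment 1 and -1.04 in experiment 2), against 0.075 over all tested probe sets, and it was below 0 under every scaling tried. Over all 14, filtered or not, the median was -0.30, against 0.053 over all 22746 probe sets, and 13 lay below 0, against 42.8% of those, EXPB5 being the exception. In level, groups did not overlap and anoxia was lower for 6 of the 14 (EXPA4, EXPA7, EXPA8, EXPA15, EXPA18 and EXPB1), against 13.1% of all 22746 probe sets, and anoxia was higher without overlap for 0 of the 14, against 17%. For EXPA7, EXPA8 and EXPA18 this holds in level but not in uncentred signal, and for EXPA7 the readings that cross are 2.8 under anoxia and 2.7 in air. For single values, an exact permutation test of 2 arrays against 2 cannot give a two-sided p below 0.333.

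**Figure D2:**
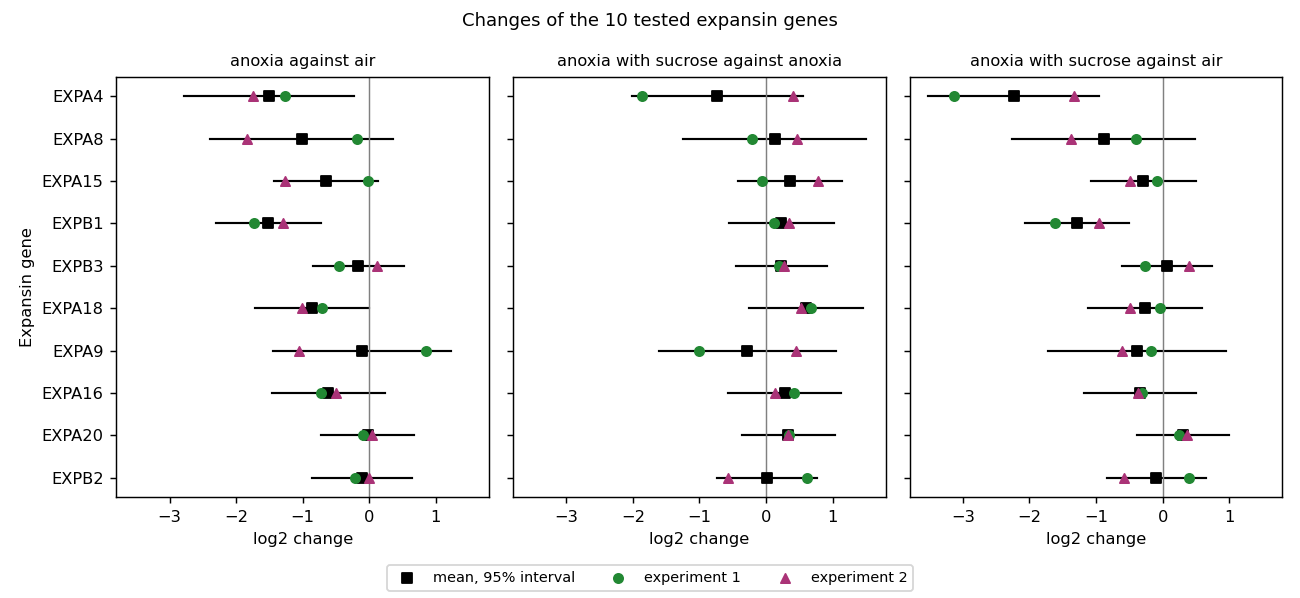
Changes in log2 level of the 10 tested expansins in the 3 comparisons, with the mean and its 95% interval from limma without the block (squares and lines) and the change within experiment 1 (circles) and experiment 2 (triangles). In the left panel all 10 means lie below 0, and in the right panel EXPA4 ranges from -3.13 to -1.34 between experiments.

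The family was also narrowed to members with a clear signal. The 4 expansins above the array median on both air arrays were EXPA4, EXPA8, EXPA9 and EXPB1, and their median change was -1.26 (-0.73 and -1.52 by experiment). Selection on air favours a lower value elsewhere, so this is a description. Selected instead on the mean over all 6 arrays, which adds EXPA20, the median was -1.01 (-0.19 and -1.29 by experiment).

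**Figure D3:**
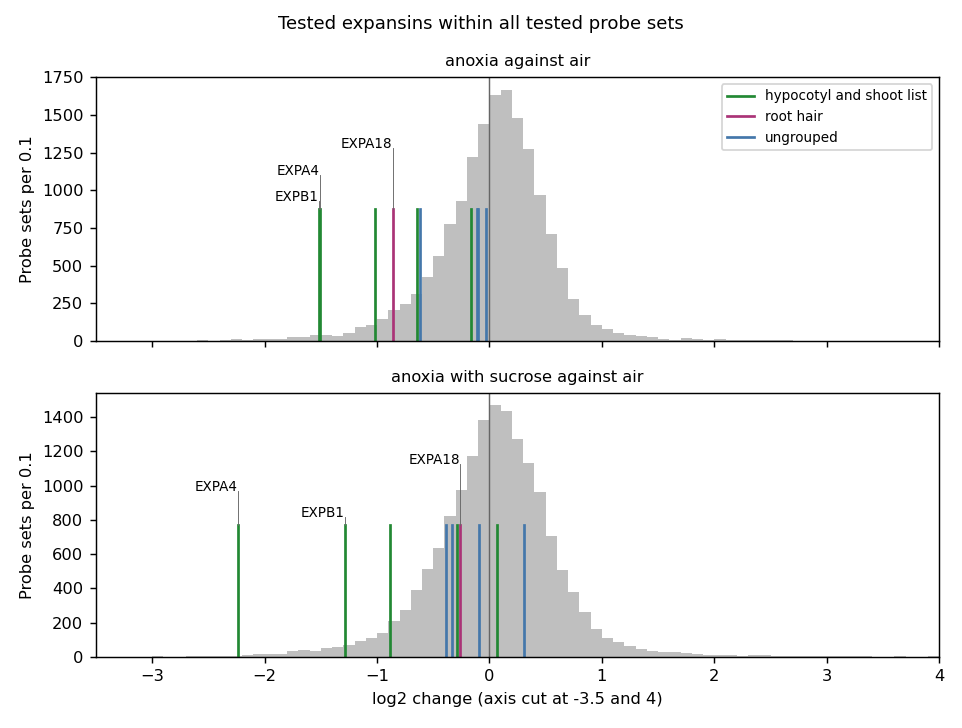
Distribution of log2 changes over the 15922 tested probe sets (grey, probe sets per 0.1) for anoxia against air and for anoxia with sucrose against air, with vertical lines at the 10 tested expansins coloured by role. EXPB1 and EXPA4 stand in the left tail in both panels, and EXPA18 is at -0.86 in the upper panel and -0.26 in the lower.

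The sucrose arrays were next set against anoxia alone, which asked what sugar supply altered when oxygen was absent in both groups. No expansin was called by limma with or without the block (0% of tested probe sets lower in either, 0% higher without and 0.0188% with the block), and 0 of the 10 had an unadjusted p under 0.05 in either, where 1.01% of tested probe sets did without the block and 3.5% with it. The median of the 10 was 0.23 (0.16 in experiment 1 and 0.38 in experiment 2), against -0.011 over all tested probe sets. Of the 10, 8 lay above 0, against 48.7% of all tested probe sets, and EXPA4 and EXPA9 below. In both experiments 5 of the 10 lay above 0, against 25.6% of all tested probe sets. By experiment, 4 lay below 0 in experiment 1 and 1 in experiment 2.

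EXPA18 was at 0.60 ± 0.38, with 0.67 and 0.52 by experiment and a 95% interval from -0.26 to 1.45. It is the highest value among the 10 and did not pass (unadjusted p = 0.152 by limma). EXPB1 was at 0.23 ± 0.35, with a 95% interval from -0.56 to 1.02. EXPA8 was at 0.13 ± 0.62, EXPA15 at 0.36 ± 0.35 and EXPB3 at 0.23 ± 0.31. EXPA4 went opposite ways, with -1.87 in experiment 1, on the array with high 3'/5' ratios, and 0.41 in experiment 2. So did EXPA8 (-0.21 and 0.47), EXPA9 (-1.01 and 0.45), EXPA15 (-0.066 and 0.78) and EXPB2 (0.61 and -0.57).

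In level, sucrose arrays lay above both anoxia arrays without overlap for EXPA20, EXPA24, EXPB1 and EXPB3. The signals of EXPA24 did overlap, at 0.4 and 20.9 with sucrose against 1.9 and 1 under anoxia, and so did those of EXPA20, EXPB1, EXPB3 and EXPB5. That makes 4 of all 14 by level, against 11.2% of all 22746 probe sets, and EXPB5 was lower without overlap, against 7.7%. Among the genes higher with sucrose, EXPA20 was at 0.34 ± 0.31 (0.35 and 0.32 by experiment), about the size of its error. EXPB1 and EXPB3 were below their errors, at 0.23 ± 0.35 and 0.23 ± 0.31. EXPA24, at 0.62, was not tested and has no error. EXPA9, EXPA16 and EXPB2 were at -0.28 ± 0.60, 0.28 ± 0.38 and 0.021 ± 0.34, with EXPB2 below 0 after quantile normalization (-0.024) and after scaling to a common trimmed mean (-0.065).

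Setting the sucrose arrays against air combines both treatments, and shares its air arrays with the first comparison. EXPA4 was at -2.24 ± 0.58 (adjusted p = 0.235 by limma), 4.71-fold lower, with -3.13 in experiment 1 and -1.34 in experiment 2. EXPB1 was at -1.29 ± 0.35 (adjusted p = 0.284), with -1.62 and -0.95. Neither passed, where 0.1% of tested probe sets were called lower and 0.151% higher, and both fell with the experiment as a block (adjusted p = 0.0077 and 0.0156 by limma), where 1.69% were called lower and 1.62% higher. With the block and without the sucrose array of experiment 1, which had high 3'/5' ratios, EXPA4 was at -1.22 ± 0.45 (adjusted p = 0.507 by limma) and EXPB1 at -1.06 ± 0.38 (adjusted p = 0.475), and calls over all tested probe sets went from 269 lower and 258 higher to 28 and 38. Leaving out each of the 6 arrays in turn with the block, EXPA4 passed in 5 fits and EXPB1 in 3. EXPB1 also missed the threshold without the air array of experiment 1 (adjusted p = 0.237) and without the sucrose array of experiment 2 (adjusted p = 0.0864). The part of RNA quality in these values was not tested.

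EXPA8 was at -0.89 ± 0.62 (-0.39 and -1.38 by experiment) and EXPA18 at -0.26 ± 0.38 (-0.034 and -0.49). EXPA20 was above 0 in both experiments, at 0.31 ± 0.31, and EXPB3 was at 0.067 ± 0.31, turning to -0.049 after scaling to a common trimmed mean. EXPA9, EXPA15, EXPA16 and EXPB2 lay between -0.39 and -0.093. The median of the 10 tested was -0.31 (-0.21 and -0.54 by experiment), against 0.058 over all tested probe sets, and that of the 5 hypocotyl and shoot genes -0.89 (-0.39 and -0.95). In level, groups did not overlap and sucrose was lower for 5 of the 14, EXPA4, EXPA8, EXPA9, EXPA15 and EXPB1, against 10.9% of all 22746 probe sets. It was higher in level for EXPA20 and EXPA24, against 18.5%, though in uncentred signal both overlapped with air, as did EXPA15.

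Side by side, the hypocotyl and shoot genes EXPB1 and EXPA4 were at -1.52 and -1.51 under anoxia and at -1.29 and -2.24 with sucrose, each against air, and the root hair gene EXPA18 at -0.86 and -0.26. These pairs share the air arrays. By experiment, EXPB1 was at -1.74 and -1.62 in experiment 1 and -1.29 and -0.95 in experiment 2, and EXPA18 at -0.70 and -0.034 in experiment 1 and -1.02 and -0.49 in experiment 2. EXPA18 is dim, with a signal of 2.1 on the anoxia array of experiment 2, and its change depends on the 16 added. With 1 added in place of 16, anoxia against air gave -1.97 for EXPB1, -1.64 for EXPA4 and -1.91 for EXPA18. For anoxia against air, the sizes of these changes therefore do not set the root hair gene apart. For sucrose against air EXPA18, at -0.26, changed less than EXPB1 and EXPA4. It still lay within the range of the 5 hypocotyl and shoot genes, -2.24 to 0.067, and the difference was not tested.

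The expansin-like genes, which resemble expansins in sequence but have no shown wall-loosening activity, and other genes of wall growth were counted alongside. All 4 expansin-like genes were tested and lay below 0 under anoxia (median -1.09), as did 42.5% of all tested probe sets. In limma 0 passed, where 0.126% of all tested probe sets were called lower and 0.107% higher. With the block EXLA2 fell, where 1.58% were called lower and 0.961% higher. EXLA2 read 393 and 149 on the air arrays, 77.4 and 57.9 on the anoxia arrays, 31.7 and 42.4 on the sucrose arrays. It was at -1.65 ± 0.43 for anoxia against air (adjusted p = 0.258, and 0.00936 with the block) and at -2.18 ± 0.43 for sucrose against air (adjusted p = 0.0889, and 0.000673 with the block). EXLA1 was at -1.55 ± 0.53, EXLB1 at -0.63 ± 0.43 and EXLA3 at -0.58 ± 0.55 for anoxia against air.

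Of 38 genes of xyloglucan and related enzymes 10 were matched and 7 tested. Under anoxia 6 lay below 0, against 42.5% of all tested probe sets, and the median was -0.95. With the block 2 fell and 0 rose, where 1.58% of all tested probe sets were called lower and 0.961% higher. Without it 0 passed in limma, where 0.126% were called lower and 0.107% higher. XTH33, of the xyloglucan endotransglucosylase family, which cuts and rejoins xyloglucan, was at -1.72 ± 0.41 (adjusted p = 0.208, and 0.00439 with the block), and EXGT-A3 of the same family at -1.63 ± 0.46 (adjusted p = 0.349, and 0.0431 with the block). With the block and each array left out in turn, XTH33 passed for anoxia against air in 6 of 6 fits and EXGT-A3 in 0. EXLA2 passed in 4, and missed the threshold without the air array of experiment 1 (adjusted p = 0.052 by limma) and without the anoxia array of experiment 1 (adjusted p = 0.392). XTH19 and XTH16 were at -1.43 ± 0.56 and -0.95 ± 0.59. Against air, sucrose gave 3 lower calls with the block, EXGT-A3, XTH16 and XTH33, where 1.69% of all tested probe sets were called lower. All 3 and EXLA2 missed the threshold when the sucrose array of experiment 1 was also left out (adjusted p of 0.125, 0.387, 0.26 and 0.0866 by limma).

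Other lists had few matches. COB, a protein that orients cellulose, was at -0.56 ± 0.73, and PME61, a pectin methylesterase also named PME35, at -0.15 ± 0.44 for anoxia against air. HAT2, an auxin-induced homeodomain factor of hypocotyl elongation, was the 1 growth regulator tested of 37 listed. It read 589.5 and 345 with air, 148 and 106 with anoxia alone, 97.6 and 203 with added sucrose, and was at -1.73 ± 0.44 (adjusted p = 0.252, and 0.0237 with the block, which it kept in 3 of the 6 fits without 1 array, with adjusted p of 0.0287 to 0.281). No plasma membrane proton pump of the 11 listed had a matched probe set, so the acidification that expansins need could not be followed.

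**Figure D4:**
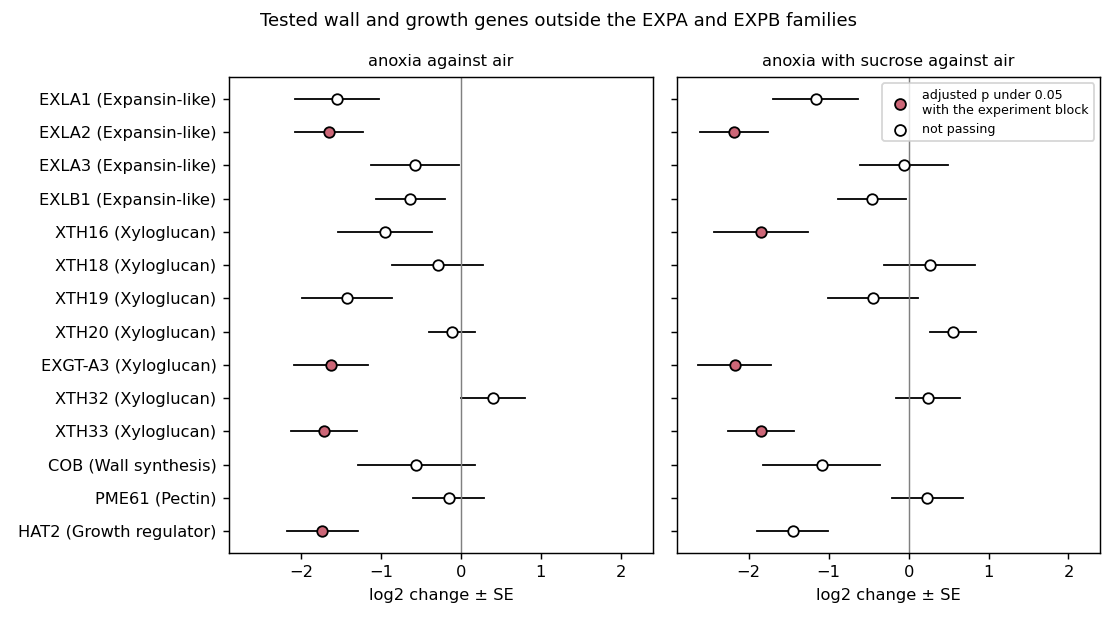
Changes in log2 level (mean ± SE from limma without the block) of 14 tested genes of wall growth outside the EXPA and EXPB families, for anoxia against air and for anoxia with sucrose against air, filled where the adjusted p was under 0.05 with the experiment as a block. EXLA2, EXGT-A3 and XTH33 are filled in both panels and lie between -1.63 and -2.18, while HAT2 is filled in the left panel and XTH16 in the right.

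EXPA8 had the brightest probe set of the family, with a mean level of 3.52, which does not rank its transcript against others, and was taken for that brightness as the gene to match. The 3 single-gene probe sets whose levels followed it most closely over the 6 arrays were scpl48 (r = 0.996), AT4G22190 (r = 0.988) and AT3G01350 (r = 0.982). They were picked from 8730 candidates over 6 arrays of 3 groups, so coefficients of this size are a description of these arrays.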

How the data were processed

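The deposited table gives 22810 probe sets on 6 arrays, each with an intensity that is linear, not logged. Per the labels, Affymetrix's standard target preparation was used. Nothing on software, background correction or scaling was given in the sources used here. Trimmed means (2%) differed by up to 85.5% between arrays, so each array was centred on its median. After 64 controls were left out, 16 was added and log2 taken, and 15922 probe sets at or above the 30th percentile of mean level were tested. The test was limma 3.58.1 (R 4.3.3): 1 coefficient per group over all 6 arrays, eBayes with intensity trend (3 residual degrees of freedom, prior 6.97), two-sided, Benjamini-Hochberg over all tested probe sets, threshold 0.05. Precision is limited by the number of arrays. The p-values rest on the spread between 2 pooled samples per group, taken over the 3 groups together. That spread is drawn by eBayes toward the spread of probe sets at similar intensity, which weighs more than the probe set's own.

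Titles number the experiments in every group, which was taken as pairing the arrays. Differences between experiments correlated across probe sets at r = 0.383, 0.392 and 0.562 between groups. The fit with that number as a block (2 residual degrees of freedom, prior 17) is given beside results whose call it changes.

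Symbols come from the platform annotation, matched by gene number to RefSeq's table (TAIR10.1), used for names and gene order: 13513 probe sets had 1 gene, 503 several and 8730 none, and 13436 were matched. All 14 members had the same kind of symbol in both tables. Members, roles and lists were chosen with earlier results of these data known. All members are named, and of each related list up to 4 tested genes with the smallest p for anoxia against air. The steps were run on simulated data with known changes, and the outcome is not given here. Every simulated array had the same spread, so that run does not cover differences in quality between arrays. Alternatives were other pseudocounts, filters, scalings, no trend, only the groups compared, the block, and leaving out each array, without and with the block.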

Additional observations from a re-analysis of the deposited data

How the results depend on the processing

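With 2 pooled samples per group, single arrays weigh heavily. The number of expansins called was 0 in each comparison, and with the experiment number as a replicate block it was 1 (EXPB1) for anoxia against air, 0 for sucrose against anoxia and 2 (EXPA4, EXPB1) for sucrose against air. In alternatives chosen after seeing the data, with the replicate block and each array left out in turn, these counts were 0 to 2, 0 to 0 and 0 to 2. For anoxia against air the 0 came without the air array of experiment 1, and without the anoxia array of experiment 1 the call was EXPA4 in place of EXPB1. For sucrose against air the 0 came without the sucrose array of experiment 1. The median over tested expansins for sucrose against air was -0.58 with the block and without the air array of experiment 1. Without 1 array and with no block, the counts were 0 to 0, 0 to 0 and 0 to 1. The 1 was EXPA4, without the sucrose array of experiment 2. The median over tested expansins ranged from -1.06 (without the anoxia array of experiment 1) to -0.29 (without that of experiment 2) for anoxia against air, from 0.16 to 0.30 for sucrose against anoxia, and from -0.55 (without the sucrose array of experiment 1) to -0.23 for sucrose against air, where the 50th percentile filter, which leaves 5 expansins, gave -0.89. Over all tested probe sets, calls for anoxia against air were 20 lower and 17 higher, against 251 and 153 with the block, 1 and 1 with a pseudocount of 1, 56 and 26 with one of 64, and 48 and 40 with no filter.

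Uncalled genes near 0 changed sign in places. A pseudocount of 64 put EXPA9 at 0.0045 for anoxia against air. For sucrose against anoxia EXPB2 turned to -0.024 by quantile normalization and -0.065 by a common trimmed mean, and without the sucrose array of experiment 1, with the block, EXPB2 was at -0.52 and EXPA4 at 0.29. For sucrose against air EXPB3 turned to -0.049 by a common trimmed mean. Leaving out 1 array gave ranges across 0 for anoxia against air of -1.09 to 0.88 (EXPA9), -0.17 to 0.12 (EXPA20), -0.43 to 0.10 (EXPB3) and -0.33 to 0.10 (EXPB2). For sucrose against anoxia they were -1.26 to 0.70 (EXPA9), -0.12 to 0.68 (EXPA16), -0.64 to 0.895 (EXPA8), -0.35 to 0.40 (EXPB2), -0.031 to 0.75 (EXPA15) and -1.63 to 0.17 (EXPA4), and for sucrose against air -0.20 to 0.33 (EXPB3), -0.70 to 0.17 (EXPA18) and -0.47 to 0.28 (EXPB2). With the block and 1 array left out, further values across 0 for anoxia against air were 0.48 and 0.74 (EXPA9), 0.036 and 0.014 (EXPA20), 0.14 (EXPB3), and 0.077 and 0.23 (EXPB2). For sucrose against anoxia they were 0.56 (EXPA9), -0.45 (EXPA8), -0.33 (EXPB2) and -0.17 (EXPA15), and for sucrose against air 0.20 (EXPA9), -0.24 and -0.11 (EXPB3), 0.098 and 0.45 (EXPB2), and 0.13 (EXPA15). The causes were not tested.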
